A study of Rattus norvegicus with 6 samples.

Results

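The genes described here encode the mitochondrial carriers of solute carrier family 25 (Slc25). They were taken as every gene with a symbol starting with Slc25a in the authors' annotated table of α1ACT-only binding peaks. This gave 32 of the 14390 genes in the table, with 144 of its 159452 peaks. The data are chromatin immunoprecipitation sequencing (ChIP-seq) peak lists from PC12, a rat pheochromocytoma line derived from the neural crest, at passages 18 to 20. One stable line carried pCDNA3 without insert (the empty vector) and the other expressed human α1ACT (labelled Q11), which is a transcription factor translated from the CACNA1A calcium channel transcript. Chromatin of each line was precipitated with M2, an anti-FLAG antibody, and with an antibody labelled 1804, whose target the labels do not give, and each line also had an input. All 6 groups held 1 library, so no value has a replicate error and no test between conditions was possible. The labels do not say whether the α1ACT line was 1 clone or a pool. The series' design text speaks of tissues at day 3, which the sample labels do not mention.

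Mitochondrial carriers are small proteins of the inner mitochondrial membrane, built from a repeated module of paired membrane helices. Each exchanges or carries a particular set of metabolites between cytosol and matrix: ADP against ATP, phosphate, citrate and other carboxylates, amino acids, cofactors or metals. They are encoded in the nucleus and imported through the TOM and TIM complexes of the outer and inner membranes. In neurons and neuroendocrine cells they supply ATP and pass reducing equivalents from the cytosol to the respiratory chain.

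Of the 32 carrier genes, 19 had at least 1 peak within 1000 bp of the transcription start site (TSS), here called a promoter peak. That is 59.4% (exact 95% binomial interval 40.6 to 76.3), beside 43.2% of all genes in the table. The interval includes the share of all genes, and it covers counting error only. The 19 genes held 29 promoter peaks. The genes of the carboxylate carriers, of the phosphate carrier and of the ADP/ATP carriers Slc25a4 and Slc25a5 were among them. Of the amino acid carrier genes, 1 of 5 was, with an interval (0.505 to 71.6%) that also includes the share of all genes. The highest signal in the family was 9.74, against 30.3 for the highest promoter peak in the table.

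To show what lies at these start sites, the 250 bases before the TSS are printed for 6 genes from RefSeq on build GRCr8, each 5′ to 3′ on the strand of its gene. They are the 4 genes of highest promoter signal that RefSeq's promoter table held, and Slc25a4 and Slc25a5, the paralogous ADP/ATP carrier genes. Capitals mark the GC box GGGCGG, the CCAAT box CCAAT and the ETS core CCGGAAG, on either strand. The peaks are on build rn5 and were not placed on these sequences.
Slc25a11, chr10:55859061-55859310, minus strand: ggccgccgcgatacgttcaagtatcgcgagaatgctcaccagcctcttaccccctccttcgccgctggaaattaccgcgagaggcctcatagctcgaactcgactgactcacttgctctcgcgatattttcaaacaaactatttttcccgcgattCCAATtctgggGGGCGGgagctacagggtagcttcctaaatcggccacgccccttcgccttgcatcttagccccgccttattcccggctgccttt
Slc25a3, chr7:27506628-27506877, minus strand: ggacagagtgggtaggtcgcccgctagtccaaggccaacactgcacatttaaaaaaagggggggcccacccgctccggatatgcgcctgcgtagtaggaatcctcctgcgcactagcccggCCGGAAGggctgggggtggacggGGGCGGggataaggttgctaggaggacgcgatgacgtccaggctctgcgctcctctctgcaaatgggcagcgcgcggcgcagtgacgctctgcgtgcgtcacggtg
Slc25a10, chr10:106264146-106264395, plus strand: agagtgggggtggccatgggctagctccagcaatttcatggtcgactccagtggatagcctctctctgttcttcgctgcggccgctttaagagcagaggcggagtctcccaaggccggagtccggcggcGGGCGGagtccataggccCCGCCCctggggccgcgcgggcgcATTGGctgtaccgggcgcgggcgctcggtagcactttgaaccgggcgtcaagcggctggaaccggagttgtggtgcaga
Slc25a35, chr10:54172115-54172364, plus strand: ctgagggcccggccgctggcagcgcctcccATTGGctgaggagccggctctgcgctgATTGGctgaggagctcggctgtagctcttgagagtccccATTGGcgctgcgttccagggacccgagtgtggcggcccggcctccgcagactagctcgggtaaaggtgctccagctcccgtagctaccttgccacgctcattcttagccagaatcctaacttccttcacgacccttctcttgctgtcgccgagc
Slc25a4, chr16:52805271-52805520, plus strand: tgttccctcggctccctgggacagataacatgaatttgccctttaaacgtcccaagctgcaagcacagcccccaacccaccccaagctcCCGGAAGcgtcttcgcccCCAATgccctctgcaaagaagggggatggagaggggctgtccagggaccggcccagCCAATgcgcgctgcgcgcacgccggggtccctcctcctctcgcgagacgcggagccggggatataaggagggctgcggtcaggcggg
Slc25a5, chrX:120897366-120897615, plus strand: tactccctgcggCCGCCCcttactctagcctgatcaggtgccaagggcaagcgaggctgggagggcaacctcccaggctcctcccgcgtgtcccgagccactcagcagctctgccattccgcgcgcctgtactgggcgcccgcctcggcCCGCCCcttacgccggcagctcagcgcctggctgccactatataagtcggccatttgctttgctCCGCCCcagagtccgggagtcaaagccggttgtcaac

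The 6 sequences were rich in CpG and differed in the boxes they held. Slc25a35 held 3 CCAAT boxes and no GC box, whereas Slc25a5 held 3 GC boxes and no CCAAT box. Slc25a4, its paralog, held 2 CCAAT boxes and 1 ETS core. Slc25a3 and Slc25a4 were the only ones of the 6 with an ETS core. The number of CpG in the 250 bases ran from 18 in Slc25a35 to 24 in Slc25a10.

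Among all carrier promoters with a sequence, those of genes with a promoter peak had the higher median number of CpG, a difference that was not tested. RefSeq's table held a window from 250 bases before to 50 after the TSS for 26 of the 32 genes. The 14 windows of genes with a promoter peak held a median of 24.5 CpG, from 5 in Slc25a21 to 42 in Slc25a39. The 12 windows of genes without one held a median of 14, from 3 in Slc25a34 and Slc25a41 to 45 in Slc25a40, so the ranges overlapped. Slc25a40 is among the genes without one only because the peaks near its TSS were assigned to its neighbour Dbf4. The next highest of these windows was that of Slc25a33, with 40. The same order held over all genes of the table with a window, with medians of 24 over 5040 genes with a promoter peak and 9 over 6350 without. A GC box, on either strand, was in 11 of the 14 and in 8 of the 12 carrier windows, beside 70.3% of the windows of table genes with a promoter peak, 37.4% of those without and 34.9% of all 27457 RefSeq windows of this length. A CCAAT box was in 8 of the 14 and 8 of the 12, beside 37.1%, 37.6% and 37.7% of the same sets. The ETS core was in 2 of the 14 (14.3%) and 2 of the 12 (16.7%), beside 18.4%, 8.63% and 9.22%. The cyclic AMP response element TGACGTCA was in none of the 14 and in 2 of the 12, Slc25a25 and Slc25a33, beside 3.59%, 1.95% and 1.91%. The NRF1 core GCATGCGC, also searched on both strands, was in none of the 26, beside 5.85%, 2.33% and 2.66% of the same sets. The TATA box, searched as the exact letters TATAAA on both strands, was in none either, beside 6.29%, 15.8% and 14.3%. Other spellings of these elements were not searched, so their absence is not shown. A letter match describes the window and shows no binding.

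All 4 carboxylate carrier genes had a promoter peak, with an interval on the share from 39.8 to 100%. That includes the 43.2% of all genes. So do the intervals of the other carrier groups below, among them adenine nucleotide (14.7 to 94.7%) and metal and glutathione carriers (19.4 to 99.4%). These groups are small, and differences between them were not tested. Slc25a11, the oxoglutarate carrier of the malate-aspartate shuttle, had the highest promoter signal of the family. Signal is the authors' own value for each peak, on a scale the sources used here do not state, and it is compared only within its list. The single Slc25a11 peak, on chromosome 10 from 57013730 to 57013785 and 118 bp upstream of the TSS, reached 9.74, higher than 99.1% of all peaks in the table and above 93.9% of all promoter peaks. Slc25a10, the dicarboxylate carrier, was the only member with 3 promoter peaks. They lay on chromosome 10 at 109258797 to 109258852, 109259022 to 109259077 and 109259247 to 109259302, with signals of 7.15, 5.84 and 3.86. Their starts were 225 bp apart each time, and the signal was highest upstream of the TSS and lowest farthest downstream.

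The other carboxylate carriers had lower promoter peaks. Slc25a1, the citrate carrier that exports acetyl units for lipid synthesis, had 1 at 66 bp upstream of the TSS with a signal of 3.45, below its own downstream peak of 6.42, which lay 5898 bp from the TSS. Slc25a21, the oxodicarboxylate carrier, had 1 at 350 bp downstream with a signal of 2.63. Slc25a21 had the most assigned peaks of the family, 21, and the other 20 lay outside the promoter window, with signals up to 5.35.

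Slc25a3, the phosphate carrier that supplies the ATP synthase with substrate, ranked next by promoter signal. Its peaks, on chromosome 7 from 31911231 to 31911286 and from 31911002 to 31911057, lay 210 and 439 bp downstream of the TSS with signals of 5.10 and 8.27. It had no other assigned peak. RefSeq lists 2 pseudogenes of Slc25a3 and 1 of Slc25a21, so reads in transcribed sequence of these genes may be shared with copies.

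Of the 5 adenine nucleotide carrier genes in the table, 3 had promoter peaks, and each of these had 2. Slc25a4, the ADP/ATP carrier of heart, muscle and brain, had a peak over the TSS on chromosome 16 from 48981598 to 48981653 whose signal was 6.12, and another 401 bp downstream with 3.82. Its paralog Slc25a5, the ADP/ATP carrier of proliferating cells, had peaks 225 bp upstream and 128 bp downstream on chromosome X with signals of 4.73 and 2.43. In both genes the more upstream of the pair was the higher. Slc25a24, an ATP-Mg/phosphate carrier, had peaks 283 and 648 bp downstream on chromosome 2 with signals of 5.80 and 4.40. The other ATP-Mg/phosphate carriers had none: the nearest peak of Slc25a41 lay 2184 bp downstream with a signal of 2.43, and that of Slc25a25 lay 12455 bp downstream with 3.18. The RefSeq gene table lists 9 pseudogenes of Slc25a5 and 1 of Slc25a4, so reads at these genes may be shared with copies where a peak lies in transcribed sequence.

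The metal and glutathione carriers had promoter peaks in 3 of 4 genes, with highest signals close to each other. Slc25a37 and Slc25a28 encode the mitoferrins, which bring iron into mitochondria for heme and iron-sulfur cluster synthesis. Slc25a37 had peaks 162 and 460 bp downstream, on chromosome 15 from 54897969 to 54898024 and from 54897671 to 54897726, with signals of 4.86 and 6.31. Slc25a28 had 1 peak, 564 bp upstream on chromosome 1 from 270877347 to 270877402, with 6.32. Slc25a39, a glutathione carrier, had peaks on both sides of its TSS, 202 bp upstream and 58 bp downstream, with nearly equal signals of 5.32 and 5.48. RefSeq lists 8 pseudogenes of Slc25a39, so its reads may also be shared with copies.

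Slc25a40, the paralog of Slc25a39, was counted as without a promoter peak because of its neighbour. Its TSS on chromosome 4 lies 386 bp from that of Dbf4, which encodes a regulatory subunit of the replication kinase Cdc7. The peaks from 22594126 to 22594181 and from 22594430 to 22594485, with signals of 5.99 and 7.72, were assigned to Dbf4, and they lay 456 and 760 bp from the Slc25a40 TSS. With any peak near a TSS counted whichever gene it was assigned to, 20 of the 32 genes had a promoter peak (62.5%), beside 44.4% of all genes. For at least 2 members a neighbour's TSS lay within 1000 bp of a promoter peak assigned to the carrier. The Slc25a32 peak was 342 bp from the TSS of Dcaf13, and the upstream Slc25a29 peak was 925 bp from that of the microRNA gene Mir345. Only neighbours that were themselves assigned a peak were searched, so a shared promoter with any other gene would not be seen here.

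Carriers of cofactors and other nucleotides had promoter peaks in 2 of 5 genes in the table. Slc25a32, a folate and FAD carrier, had 1 at 140 bp downstream on chromosome 7 from 78244605 to 78244660, of signal 5.96. Slc25a17 of peroxisomes, the S-adenosylmethionine carrier Slc25a26 and the pyrimidine nucleotide carrier Slc25a33 had their nearest peaks at 46560, 14582 and 31791 bp from the TSS.

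Amino acid carriers had the lowest share of genes with a promoter peak, 1 of 5 (20.0%). Only Slc25a29, a carrier of basic amino acids, had them, 226 bp upstream and over the TSS on chromosome 6. Their signals of 2.66 and 2.06 were above 14.9% and 1.36% of all promoter peaks. The glutamate carrier Slc25a22 had a single peak, 3121 bp downstream with 2.17. The ornithine carrier Slc25a15, which serves the urea cycle, had its nearest peak in an intron 4587 bp downstream with 5.86. Slc25a2, its paralog, had 8 intergenic peaks, the nearest 30708 bp away. Slc25a44, a carrier of branched-chain amino acids, had 1, 14596 bp upstream in an exon of Sema4a. With 5 genes the interval on the share runs from 0.505 to 71.6%, so a difference from the other groups was not detectable.

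The uncoupling-like carriers had promoter peaks in 1 of 3 genes. Slc25a30 had a low peak over the TSS with a signal of 2.78 and a higher one 206 bp downstream, on chromosome 15 from 61541019 to 61541074, with 6.85. Slc25a14 and Slc25a27, both known from brain, had no peak nearer than 19166 and 15759 bp. Of the remaining carriers, 4 of 5 had 1 promoter peak each. Slc25a35 had a peak 272 bp upstream on chromosome 10 from 55296857 to 55296912 with 6.82. Slc25a46, an outer-membrane protein that acts in mitochondrial fission and lipid transfer, had a peak 297 bp downstream on chromosome 18 from 24114568 to 24114623 with 6.72. The peaks of Slc25a45, at 783 bp downstream, and Slc25a16, at 199 bp downstream, both genes of less firmly known cargo, were low, with signals of 2.77 and 2.25. Slc25a34 had a single peak, in an intron of Plekhm2.

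**Figure D1:**
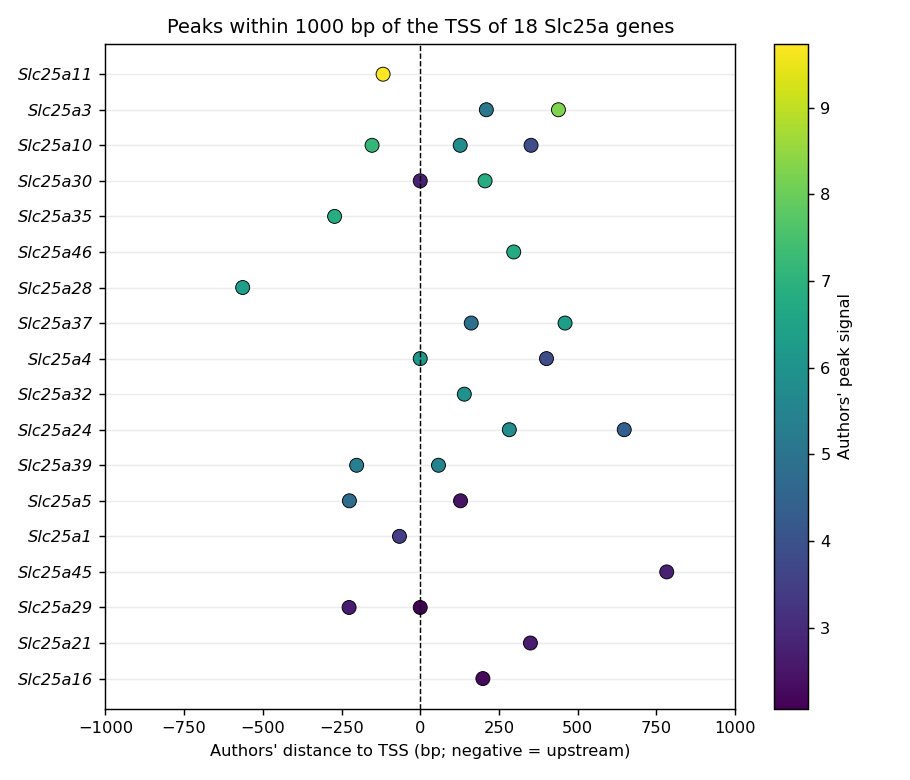
Positions of 28 promoter peaks of 18 Slc25a genes (1 gene is not drawn), as the authors' distance to the TSS in bp (x axis), 1 gene per row in order of its highest signal and coloured by the authors' peak signal. Of these peaks, 17 lie downstream of the TSS, 3 over it and 8 upstream, and the highest signal, 9.74, is that of Slc25a11.

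The promoter peaks, like those of the whole table, lay mostly downstream of the start site and close to it. Of the 29, 18 (62.1%) lay downstream, 3 over the TSS and 8 (27.6%) upstream, and of all 9175 promoter peaks in the table, a share of 58.8% lay downstream and 33.4% upstream. The median absolute distance was 210 bp, beside 228 bp for all promoter peaks, and 26 of the 29 lay within 500 bp (89.7%, beside 79.0%). The members nearest to the limit of 1000 bp were Slc25a45, inside it at 783 bp with a signal of 2.77, and Slc25a41, outside it at 2184 bp with 2.43, and no member peak lay between 783 and 2184 bp. Within 3000 bp, 20 of the 32 genes had a peak (62.5%), beside 52.3% of all genes.

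Some carrier promoters held several peaks. At least 2 promoter peaks were found in 9 of the 32 genes (28.1%), beside 15.1% of all genes. Among genes with any promoter peak the numbers were 9 of 19 (47.4%) and 34.9%. The starts of neighbouring promoter peaks of a carrier gene were 225 to 365 bp apart, with a median of 289 bp over 10 pairs. Over 2908 pairs in the table the median was 369 bp. Those pairs were formed by gene and transcript alone, and the widest was 1.66e+08 bp, so not all lie at the same promoter. No 2 neighbouring peaks of the whole α1ACT 1804 list started closer than 199 bp, so the carrier pairs lie near the closest that the list shows. Each peak was 56 bp wide.

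The highest promoter signal of the carrier genes had a higher median than that of all genes, a difference that was not tested. A gene's highest signal also depends on how many promoter peaks it has. The median over the 19 genes of the highest promoter signal was 5.96, beside 4.92 over the 6219 genes with a promoter peak, whose quartiles were 3.41 and 7.03. Of the 19, 12 were at or above the median of all genes and 7 below it. Only Slc25a11, Slc25a3 and Slc25a10 were above the upper quartile, and Slc25a45, Slc25a29, Slc25a21 and Slc25a16 were below the lower one. With only promoter peaks in the upper 10% of the table by signal counted, 12 of the 32 genes kept a peak (37.5%), beside 19.7% of all genes.

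**Figure D2:**
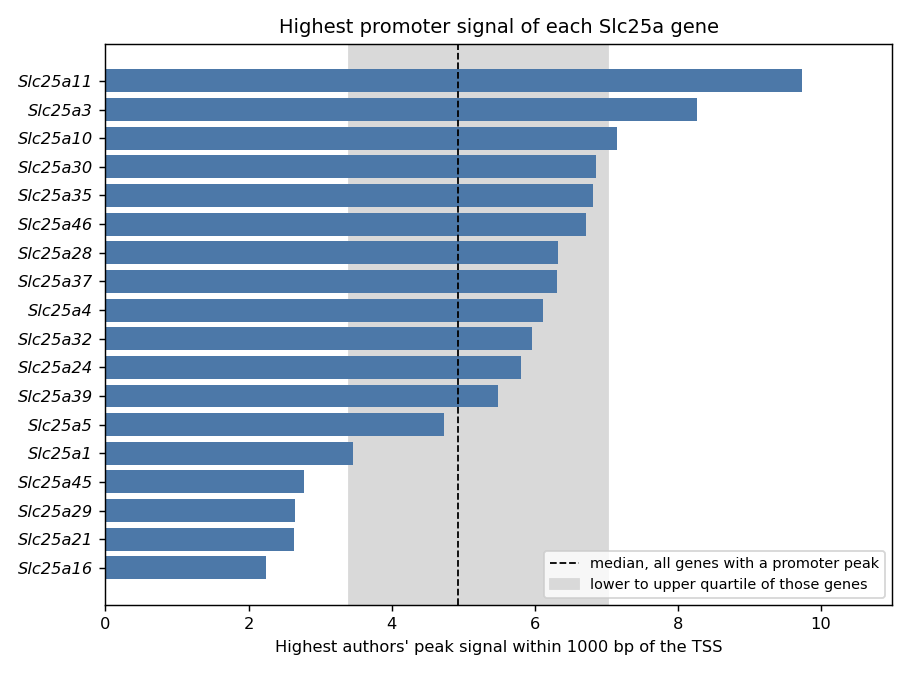
Highest authors' signal among the promoter peaks of 18 Slc25a genes (bars; 1 gene is not drawn), with the median (dashed line, 4.92) and the quartiles (shaded, 3.41 to 7.03) of the 6219 genes with a promoter peak. The 12 upper bars reach past the dashed line and 3 of them past the shaded band.

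Away from promoters the carrier genes held 115 peaks, which had a lower median signal. The median signal was 2.88 for these and 5.10 for the promoter peaks, and 2.99 and 4.36 over the whole table. Of all 144 peaks, 77 were annotated as distal intergenic (53.5%, beside 74.6% of all peaks in the table) and 30 as intronic (20.8%, beside 16.2%). Another 2 were exonic (1.39%, beside 0.914%) and 1 was in a 3′ UTR (0.694%, beside 0.248%). The share of peaks within 1000 bp of the TSS was 20.1%, beside 5.75% in the table. This share depends on how many distant peaks a gene was assigned, with a median of 2.5 peaks for a carrier gene and 4 for all genes. Slc25a21, Slc25a24 and Slc25a46 held 53 of the 144 peaks, and the other 29 genes 91, of which 27.5% were promoter peaks.

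A few distant peaks were as high as those at promoters. Of the 144 carrier peaks, 23 (16.0%) were in the upper 10% of the table by signal. Of these, 14 were promoter peaks and 9 were not, a split not made for the table as a whole. The highest distant one was an intergenic peak 22658 bp upstream of Slc25a46 with a signal of 8.51, above the 6.72 of its promoter peak. In 6 of the 19 genes with a promoter peak, a distant peak was higher than any at the promoter. The matching share over all genes was not computed, so this count has no background. Peaks assigned to Slc25a24 at 21135 and 15067 bp upstream, with 5.38 and 4.73, lay in introns of Slc25a54, a neighbouring carrier gene that had no peak assigned to it. Low signals recurred exactly: 6 carrier peaks and 3576 peaks of the table shared the value 2.77, equal within 1e-06.

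**Figure D3:**
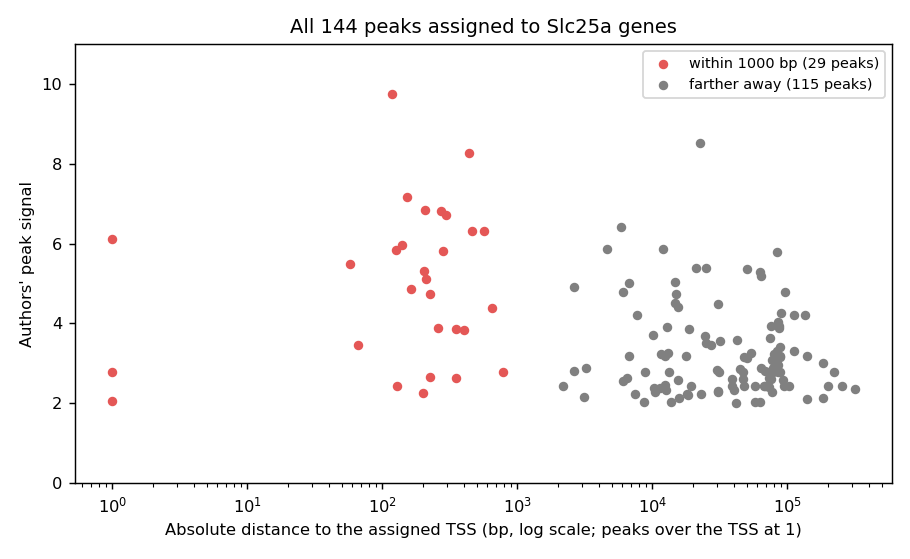
Authors' signal (y axis) of all 144 peaks assigned to Slc25a genes against their absolute distance to the assigned TSS in bp (x axis, log scale), with the 29 promoter peaks in red and the 115 others in grey. The grey points have a median of 2.88, against 5.10 for the red ones, though their ranges overlap. The highest grey point is the 8.51 peak upstream of Slc25a46.

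The carriers were compared with other genes of mitochondrial transport and with other families. Genes of the family with other symbols had promoter peaks in 4 of 5: Mtch1 and Mtch2, outer-membrane relatives of the carriers, with highest signals of 6.99 and 5.86, and the uncoupling proteins Ucp2 with 6.95 and Ucp1 with 2.01, but not Ucp3. Of the TOM and TIM import genes that carry precursors to the inner membrane, 6 of the 10 in the table had one, led by Timm22, the channel of carrier insertion, with 7.61, and Timm8b, one of the small chaperones of the intermembrane space, with 7.49. Of the other inner-membrane transport genes, 12 of the 14 in the table had one (85.7%, 57.2 to 98.2). They were led by Micu3, a regulator of the calcium uniporter, with 13.4, and Letm2 with 9.48. Another 5 of the 19 symbols listed for this set were not in the table and are left out of the share. All 3 genes of the outer-membrane channel VDAC had 2 promoter peaks each, with highest signals of 9.03 for Vdac1, 6.12 for Vdac3 and 5.02 for Vdac2. The intervals for the family members with other symbols (28.4 to 99.5%), the import genes (26.2 to 87.8%) and the VDAC genes (29.2 to 100%) include the 43.2% of all genes. The interval for the other inner-membrane transport genes (57.2 to 98.2%) lies above that share. The intervals cover counting error only, the lists were chosen with earlier results known, and none of these differences was tested.

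Differences from larger families were not tested, and the counting intervals overlapped. The share with a promoter peak was 42.9% of the 266 other Slc genes (36.8 to 49.0), 52.1% of 48 mitochondrial ribosomal protein genes (37.2 to 66.7) and 62.9% of 62 oxidative phosphorylation subunit genes (49.7 to 74.8). At least 2 promoter peaks were found in 15.4% of the other Slc genes, 10.4% of the mitochondrial ribosomal genes and 11.3% of the oxidative phosphorylation genes. The median of the highest promoter signal was 4.70, 4.09 and 4.95 in these families, beside 5.96 in the carriers. These families were taken by symbol after the files were seen.

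**Figure D4:**
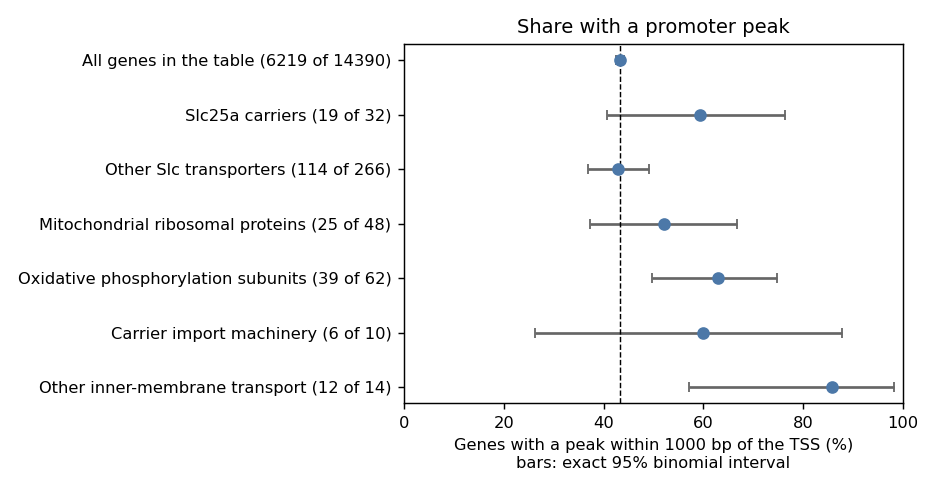
Percentage of genes with a peak within 1000 bp of the TSS (points) with exact 95% binomial intervals (bars) in the Slc25a genes and 5 other sets, beside all genes of the table (dashed line, 43.2%). The bar of the Slc25a genes, 40.6 to 76.3, crosses the dashed line.

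The table holds only genes that were assigned a peak, so carriers without any are missing from the shares above. The RefSeq gene table lists 49 protein-coding genes with an Slc25a symbol and number, and 17 of these are not in the authors' table. They include the ADP/ATP carriers Slc25a6 and Slc25a31, the aspartate/glutamate carriers Slc25a12 and Slc25a13, the carnitine/acylcarnitine carrier Slc25a20, the glycine carrier Slc25a38 and the NAD carrier Slc25a51. Whether the authors' annotation held each of them is not stated, but introns of Slc25a54 and Slc25a38 are named in it. With all 49 as the denominator the share was 38.8% (25.2 to 53.8). Over the 45 with a curated transcript it was 42.2% (27.7 to 57.8), beside 32.9% of all 18533 protein-coding genes with one.

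The carrier peaks came from a single library, the α1ACT line precipitated with 1804. That library gave 161730 peaks. The empty-vector line gave 272 with 1804 and 244 with M2, and the α1ACT line 81 with M2. None of the 144 carrier peaks overlapped a peak of those lists or lay within 500 bp of one. No peak of the annotated table overlapped an empty-vector peak, so for these the count follows from how the genes were chosen. The nearest peak of the empty-vector 1804 list to a carrier TSS was 216 kb away, at Slc25a15, and the nearest of either M2 list was 253 kb away, at Slc25a1. No peak of those lists had a signal under 14.0, which exceeds the 9.74 of the highest carrier peak. As the scale between lists is not stated, absence of the carriers from the shorter lists cannot be told apart from a difference in how deeply those lists reach. Read depth is unknown.

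The cell type was checked on peaks alone, which do not measure expression. Of 11 chromaffin cell markers in the table, 6 had a promoter peak, among them Phox2a with 9.74, Chga with 9.26, Th with 8.79, Chgb with 6.56 and Hand2 with 4.57. Ddc, Gata3, Slc18a1, Slc18a2 and Slc6a2 had none, and Dbh was not in the table. Of 11 markers of glia, immune cells and liver, 2 did, Mbp with 8.33 and Gfap with 4.21. The intervals on these shares, 23.4 to 83.3% and 2.28 to 51.8%, both include the 43.2% of all genes, so neither list departs from the table as a whole beyond counting error.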

How the data were processed

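Peaks of 4 precipitated ChIP-seq libraries, 1 per group, were used as deposited, with 1 annotated table of the series. Inputs were not analysed here. The build rn5, BWA 0.7.5a, FastQC 0.11.2, HOMER, ChIPseeker and DiffBind are named in the submitters' processing notes, with no role for any. Settings of the peak caller were not given in the sources. The authors deposited a signal per peak, whose scaling is not stated, and a −log10 q-value, of which the lowest in the α1ACT 1804 list was 1.33. Peak signals were joined to the annotated table by chromosome and start. The authors' distances run to the near edge of a peak for all 79373 peaks off the TSS at minus-strand genes, and to the far edge for all 79360 at plus-strand genes, so they can differ by the peak width.

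Promoter peaks had an absolute distance of at most 1000 bp. Shares carry exact 95% binomial (Clopper-Pearson) intervals, which treat genes as independent and cover counting error only. Python 3.11.15, pandas 2.3.3 and scipy 1.17.1 were used, and the counting was tested on simulated data. RefSeq names and promoter windows are of GRCr8, matched by gene ID, and none of its coordinates was used for the peaks. Members, role groups and comparison lists were chosen with earlier results of these data known. Named genes were all members but 1, which like 2 marker genes is counted but not reported by name here, with coordinates for the 10 of highest promoter signal and those with 3 or more promoter peaks, and the 2 highest of each companion list; others named there were chosen after their values were seen. Alternatives were other distances, signal and q-value limits, assignments, denominators, merging and overlap rules.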

Additional observations from a re-analysis of the deposited data

How the results depend on the processing

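Of 33 values recomputed under alternatives, 24 stayed within 1.5 times the count or within the interval of the value, and 9 moved. Some of the 24 could not move. The count of 19 carrier genes does not depend on the denominator, and a stricter overlap rule cannot change a count of 0 shared peaks. The number of carrier genes with a promoter peak was 17 within 500 bp, 20 within 3000 bp, 15 at or above the median signal and 18 at a −log10 q of 2 or more, and fell to 12 in the upper 10% by signal, with 14 promoter peaks. The share of all genes moved with each of these limits, to 38.4%, 52.3%, 35.3%, 40.7% and 19.7% in that order. It was 44.4% with any peak of the whole list near a TSS and 32.9% with RefSeq genes as the denominator. These follow from the limits themselves. Distances to the near edge on both strands, tried after seeing the data, left 19 genes and 29 peaks. Merging peaks closer than 200 bp left 25. No paired analysis was possible because each group holds 1 library and no test was made. Read depth is unknown, and small role groups limit what can be told apart.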
